A study of Mus musculus with 20 samples.

Results

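The genes described here are 10 components of the circadian clock, given by name: Arntl, Clock, Per1, Per2, Per3, Nr1d1, Nr1d2, Dbp, Tef and Ciart. They are 10 of the 46603 gene identifiers counted in 20 samples of mouse liver, each sample called a liver here. They were found by matching Ensembl identifiers to GENCODE M21 symbols, and all 10 passed the filter on low counts. The study asked how livers without the polycomb protein EED in hepatocytes respond to partial hepatectomy (PHx), the surgical removal of most of the liver. All mice were males of 2 months on a C57BL6/J background. Wild-type mice (WT) were bought as C57BL/6J and are not described as carrying a transgene. The EedHepKO mice (KO) carried Cre under the albumin promoter and a floxed Eed allele. That promoter is active in hepatocytes, and which cells of these livers lost EED was not measured. The baseline samples (0 h) were the lobes excised at surgery, and the samples after PHx were the remaining lobes at 30 h (1 mouse per genotype), 40 h (2 mice) or 48 h (2 mice). This gave 4 groups of 5 livers. Colony and genotype cannot be told apart in this design, nor can lobe and PHx. A mouse number in the labels ties 9 baseline livers to the same animal after PHx, and the baseline liver called WT 1 here carries no such number.

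The clock is a feedback loop that runs in most cells of the body. ARNTL (also called BMAL1) and CLOCK bind E-box sequences as a pair and activate the Per, Cry, Nr1d and Dbp genes, and the PER and CRY proteins then inhibit that pair. NR1D1 and NR1D2 (REV-ERB alpha and beta) repress Arntl, which keeps its rhythm opposite to that of Dbp, Per3 and Tef in mouse liver. Each member's level therefore depends on the hour of collection. The growth protocol names a light and dark cycle, and the hour of surgery or of collection is not given in the sources used here. Livers taken at 48 h are 2 whole days from their baseline, those at 40 h are 16 h past 1 day and those at 30 h are 6 h past 1 day, so hour of the day and time after PHx cannot be told apart at 30 h and 40 h.

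Levels are CPM, counts per 1000000 of the library total after scaling by the trimmed mean of M values (TMM). Library totals ranged from 21634890 to 30461351 counts. The TMM factor was 0.670 (WT 1) to 0.806 in WT baselines and 0.891 to 1.07 in WT after PHx. In KO it was 0.983 to 1.19 at baseline and 0.977 to 1.51 after PHx, so the scaling moved with genotype and stage. Eed, counted over the whole gene, averaged 16.8 ± 1.09 CPM in WT baselines (mean ± SD of 5) and 18.4 ± 3.98 in WT livers after PHx. The KO means were 5.64 ± 1.44 and 4.62 ± 1.14 CPM, with every KO library below every WT library. The summed level of 6 hepatocyte markers was 123000 to 141000 CPM in WT at baseline, 70600 to 113000 in WT after PHx, 74800 to 99900 in KO at baseline and 37600 to 87000 in KO after PHx. A gene was called where edgeR's quasi-likelihood test gave a Benjamini-Hochberg adjusted p under 0.05 over the 14661 genes tested. The main fits did not pair the livers of a mouse, and a block for each mouse was an alternative.

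Short sequence words that clock factors read were searched on both strands of RefSeq promoter windows (GRCm38.p6, 250 bases before to 50 after a start), which hold 9 of the 10 members in 14 windows. Per2 has no window. The words were the E-box CACGTG bound by CLOCK and ARNTL, the D-box TTATGTAA or TTACGTAA bound by DBP and TEF, the core TAGGTCA or TGGGTCA read by ROR and REV-ERB proteins, and the cAMP response element TGACGTCA. The E-box was in 7.15% of all 32851 windows of the same length, the D-box in 1.06%, the ROR core in 6.45% and the cAMP response element in 1.79%. The stretches around each match in a member are shown because these genes include the ones that rose most after PHx, with the word in capitals and 5′ to 3′ on the gene's strand. No word overlapped another.
Ciart, 3 E-boxes from 116 to 44 bases before the start, minus strand, chr3:95882259-95882352: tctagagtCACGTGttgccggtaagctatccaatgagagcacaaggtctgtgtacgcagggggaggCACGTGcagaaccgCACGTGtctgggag
Per3, 2 D-boxes 205 and 158 bases before the start, minus strand, chr4:151044808-151044878: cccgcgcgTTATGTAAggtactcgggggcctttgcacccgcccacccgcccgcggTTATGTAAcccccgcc
Per1, 1 E-box 166 bases before the start, plus strand, chr11:69098775-69098796: cccaagtcCACGTGcagggatg
Tef, 1 E-box 127 bases before one start, plus strand, chr15:81802538-81802559: tgtggctcCACGTGctgcagct
Tef, 1 E-box 138 bases before the other start, plus strand, chr15:81811268-81811289: tggcccagCACGTGtctacatc
Arntl, 1 ROR core 30 bases after the start, plus strand, chr7:113207533-113207555: gcagaaagTAGGTCAgggacgga
The windows of Clock, Nr1d1, Nr1d2 and Dbp held none of these words, nor did the other window of Per1 or the other window of Arntl. A match is only a description of the letters in a window.

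After PHx the clock repressors Per1, Per2, Per3 and Ciart rose in both genotypes, and Tef rose in KO. The calls of Per3 in WT and of Tef in KO were lost in 10 and 6 of 19 alternative fits. Clock, the partner of ARNTL, was lower in KO than in WT before and after PHx, by 2.09-fold and 2.67-fold. None of the 10 responses to PHx differed between genotypes by the test. Dbp was below 1 CPM in 4 of 5 WT livers at baseline and 34 CPM in WT 1, so its response depended on that library. Between genotypes at baseline, 0 of the 10 were called higher and 1 lower in KO, where 11.1% and 4.89% of all genes tested were called. After PHx again 0 were higher and 1 lower in KO, against 16% and 8.2% of all genes. In the response to PHx, 4 of 10 were called higher in WT and 0 lower, against 11.4% and 8.68%. In KO 5 of 10 were higher and 0 lower, against 17.5% and 12.1%. The median log2 change of the 10 was 0.94 in WT and 1.77 in KO, beside 0.04 and 0.10 for all genes. The WT median was 1.56 without WT baseline 1 and 0.28 without WT 1 at 30 h, so its size against the KO median rests on those livers.

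**Figure D1:**
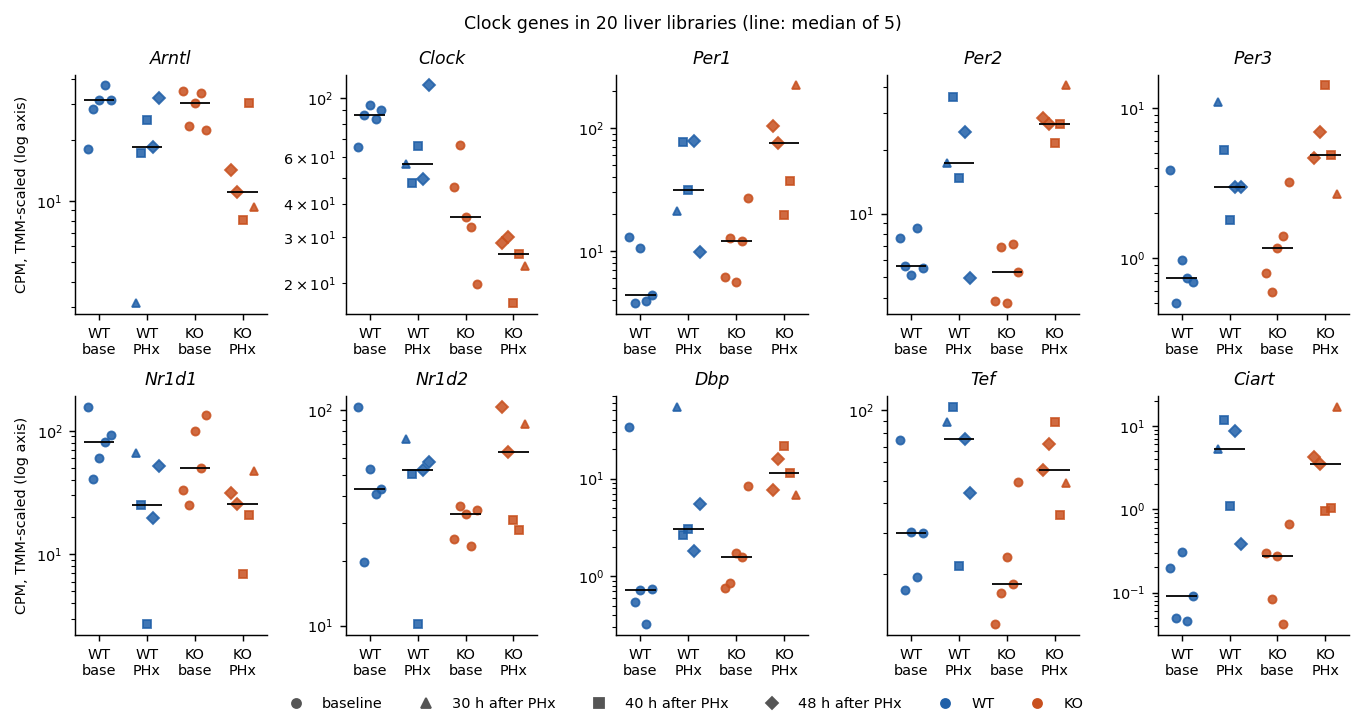
Level of each clock gene in every library (CPM, TMM-scaled, log axis), by genotype and stage; symbols give the time after PHx and horizontal lines the median of 5 livers. Clock in KO after PHx (16.8 to 30.0 CPM) lies below all WT livers after PHx (47.8 to 112 CPM), and Ciart after PHx lies above all baseline livers of the same genotype.

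Among the activators, Clock encodes the basic helix-loop-helix partner of ARNTL. In WT at baseline its level was 65.4, 86.6, 94.4, 83.2 and 90.6 CPM in the livers called WT 1 to 5. The KO baselines had 46.1, 66.9, 35.7, 32.7 and 19.9 CPM in mice 7, 8, 10, 11 and 12. Of the KO livers, 4 of 5 were below every WT liver, and KO 8 lay just above WT 1. The log2 difference, KO minus WT, was -1.06 ± 0.27 (SE; adjusted p = 0.0118, edgeR). After PHx the WT livers had 56.4, 47.8, 66.2, 49.4 and 112 CPM, and the KO livers 28.4, 30.0, 16.8, 25.7 and 23.2 CPM. These groups did not overlap, and WT 5 at 48 h stood above the rest. The log2 difference was -1.42 ± 0.28 (adjusted p = 0.00102, edgeR). Within KO the log2 change of Clock after PHx was -0.70 ± 0.27 (adjusted p = 0.0602), and it was called without the baseline of KO 12, at -0.87 (adjusted p = 0.0219, edgeR).

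Read by time in a fit with 8 means, Clock was lower in KO at 40 h (log2 difference -1.42, adjusted p = 0.0448, edgeR) and at 48 h (-1.46, adjusted p = 0.0255). At 40 h it was the 1 member called lower and 0 were higher, where 4.68% and 8.61% of all genes were called. At 48 h the count was again 1 lower and 0 higher, against 10.7% and 13.7%. A fit of only the 4 livers compared gave like sizes for Clock, -1.42 at 40 h (adjusted p = 0.163, edgeR) and -1.51 at 48 h (adjusted p = 0.187), without a call. That fit called 0.283% of all genes at 40 h and 0 of 14830 at 48 h, where 3048 had an unadjusted p under 0.05, so the missing calls are not particular to Clock. Leaving out 1 liver of a single time leaves 1 liver on that side, which is assumed to vary like the other groups. Clock then had log2 differences from -1.76 to -1.15 at 40 h, with no call (adjusted p from 0.101 to 0.171, edgeR), while 1.47% to 17.3% of all genes were called. At 48 h they ran from -2.05 to -0.84, and the call was lost without WT 5, KO 7 or KO 8 (adjusted p from 0.0814 to 0.228). Without WT 4 the WT side at 48 h is WT 5 alone, which had the lowest Per1 and Per2 and the highest Arntl and Clock of WT after PHx. That fit called 30.3% of all genes, among them Per1 (3.08, adjusted p = 0.0305, edgeR) and Per2 (2.35, adjusted p = 0.00548) higher in KO and Arntl lower (-1.46, adjusted p = 0.0437). Without TMM scaling, by library size alone, the median of all genes moved from -0.03 to 0.45 at baseline and Clock went to -0.58 (adjusted p = 0.196, edgeR). After PHx it stayed called at -1.03 (adjusted p = 0.0216).

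Marker levels of other cell types moved with genotype beside Clock, and their part in the result was not tested. Stellate and fibroblast markers were called higher in KO for 4 of 6 at baseline and 2 of 6 after PHx. Their summed level was 139 to 219 CPM in WT and 356 to 396 in KO at baseline, and 124 to 214 and 231 to 421 after PHx. Cholangiocyte markers were called higher in KO for 1 of 5 tested at baseline and 4 of 5 after PHx, with summed levels of 23.3 to 58.2 and 55.5 to 359 CPM at baseline and 21 to 239 and 120 to 562 after PHx. Kupffer cell and macrophage markers summed to 77.5 to 131 CPM in WT and 171 to 222 in KO at baseline, and sinusoidal endothelial markers to 149 to 177 and 183 to 216, with 1 of 6 called higher in each list. After PHx both sums overlapped, at 51.8 to 209 and 45.1 to 214 CPM for Kupffer cells and 75.8 to 142 and 93.0 to 164 for endothelium, with 0 and 1 called higher. Lymphocyte markers summed to 5.76 to 8.39 CPM in WT and 7.28 to 25.3 in KO at baseline and to 1.13 to 5.86 and 3.13 to 8.87 after PHx, with 1 of 4 tested called higher at baseline and 0 after. Of the 6 hepatocyte markers 3 were lower in KO at baseline and 2 after PHx. No marker of these 6 lists was at 0 throughout a group. In bulk liver, fewer cells of a type and less RNA per cell cannot be told apart.

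Arntl, whose protein pairs with CLOCK, was 18.1, 28.5, 31.4, 37.2 and 31.6 CPM in WT at baseline. After PHx the WT values were 3.14, 17.2, 25.2, 18.5 and 32.3 CPM. The 30 h liver of WT 1 was the lowest of all 20, and WT 5 at 48 h stayed within the baseline range. In KO the values were 34.7, 23.5, 30.4, 34.3 and 22.4 CPM at baseline and 14.3, 11.1, 8.05, 30.4 and 9.33 CPM after PHx. There 4 of 5 livers lay below all KO baselines, and KO 11 at 40 h did not. The log2 change was -0.61 ± 0.42 in WT (adjusted p = 0.328, edgeR) and -0.99 ± 0.42 in KO (adjusted p = 0.0821), so neither passed. With a block for each mouse (18 livers of 9 mice) Arntl was called lower in KO, at -1.15 (adjusted p = 0.0116, edgeR). Without KO 11 after PHx it was also called, at -1.47 (adjusted p = 0.0137). Of the 9 mice with both livers, 8 had less Arntl after PHx.

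Per1 encodes a repressor of the CLOCK and ARNTL pair that also responds to hormones and stress signals. In WT it was 13.1, 3.75, 10.6, 3.94 and 4.36 CPM at baseline and 21.2, 76.4, 31.5, 78.3 and 9.86 CPM after PHx. Of the WT livers after PHx, 4 of 5 were above all baselines, and WT 5 at 48 h lay within their range. In KO it was 6.17, 12.8, 5.59, 12.1 and 26.8 CPM at baseline and 104, 76.0, 19.6, 36.7 and 222 CPM after PHx. Here 4 of 5 exceeded all KO baselines, KO 10 at 40 h did not, and KO 12 at 30 h was the highest of all 20. Per1 rose by a log2 of 2.61 ± 0.67 in WT (adjusted p = 0.00994, edgeR) and 2.85 ± 0.67 in KO (adjusted p = 0.00498). It was higher after PHx in 9 of 9 mice.

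Per2, a core repressor of the same loop, was 7.67, 5.65, 5.09, 8.53 and 5.55 CPM in WT at baseline. After PHx the WT values were 17.3, 35.7, 14.8, 24.4 and 4.98 CPM, and WT 5 at 48 h was below every baseline while the other 4 were above. KO baselines had 3.85, 6.93, 3.76, 7.14 and 5.31 CPM. KO livers after PHx had 28.4, 26.6, 21.5, 26.5 and 40.5 CPM, with no overlap. Per2 rose by a log2 of 1.58 ± 0.36 in WT (adjusted p = 0.00502, edgeR) and 2.41 ± 0.37 in KO (adjusted p = 0.000463). The difference of these responses was 0.83 ± 0.50 (adjusted p = 0.483). By library size alone, Per2 after PHx was called higher in KO than in WT at 0.96 (adjusted p = 0.0334, edgeR), against 0.56 with TMM (adjusted p = 0.252).

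Per3 is the family member whose transcript follows Dbp most closely in these livers. At baseline WT mice 2 to 5 had 0.50, 0.978, 0.734 and 0.688 CPM and WT 1 had 3.84. After PHx the WT values were 11, 5.22, 1.79, 2.98 and 2.95 CPM. All 5 exceeded WT baselines 2 to 5, and 2 exceeded WT 1. The KO baselines had 0.797, 0.592, 1.17, 1.41 and 3.19 CPM, and KO livers after PHx had 4.64, 6.94, 14.1, 4.84 and 2.65 CPM. The highest baseline, KO 12, lay above that mouse's own liver at 30 h, and 4 of 5 livers after PHx were above all baselines. Per3 rose by a log2 of 1.84 ± 0.64 in WT (adjusted p = 0.0455, edgeR) and 2.21 ± 0.64 in KO (adjusted p = 0.0148). The WT call was lost with the mouse block, at 2.07 (adjusted p = 0.0536, edgeR). It was also lost without any one of WT baselines 2 to 5 or of WT 1 or WT 2 after PHx, with adjusted p from 0.0755 to 0.147. Reads of Per3 and Camta1, which overlap on 1 strand, cannot be told apart where they share sequence. Camta1 was 1.75 CPM in WT baseline 1 and 4.65 CPM in KO baseline 12.

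Ciart encodes CHRONO, a repressor that also binds the ARNTL and CLOCK pair, and its promoter window holds the 3 E-boxes shown above. At baseline it was near the detection limit, with 3, 1, 6, 1 and 2 reads in WT and 9, 2, 8, 1 and 14 reads in KO. After PHx the libraries held 122, 270, 29, 244 and 11 reads in WT and 139, 159, 25, 37 and 359 in KO. In CPM the WT baselines spanned 0.0459 to 0.309 and the livers after PHx 5.32, 11.7, 1.10, 8.65 and 0.378. The KO baselines spanned 0.0415 to 0.657 CPM and the livers after PHx had 4.17, 3.49, 0.954, 1.03 and 17 CPM. The groups overlapped in neither genotype, and WT 5 at 48 h was the nearest to baseline. Ciart rose by a fitted log2 of 5.28 ± 1.06 in WT (adjusted p = 0.0022, edgeR) and 4.28 ± 0.97 in KO (adjusted p = 0.00428). With so few baseline reads, the size of the fold is uncertain. It was higher after PHx in 9 of 9 mice.

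**Figure D2:**
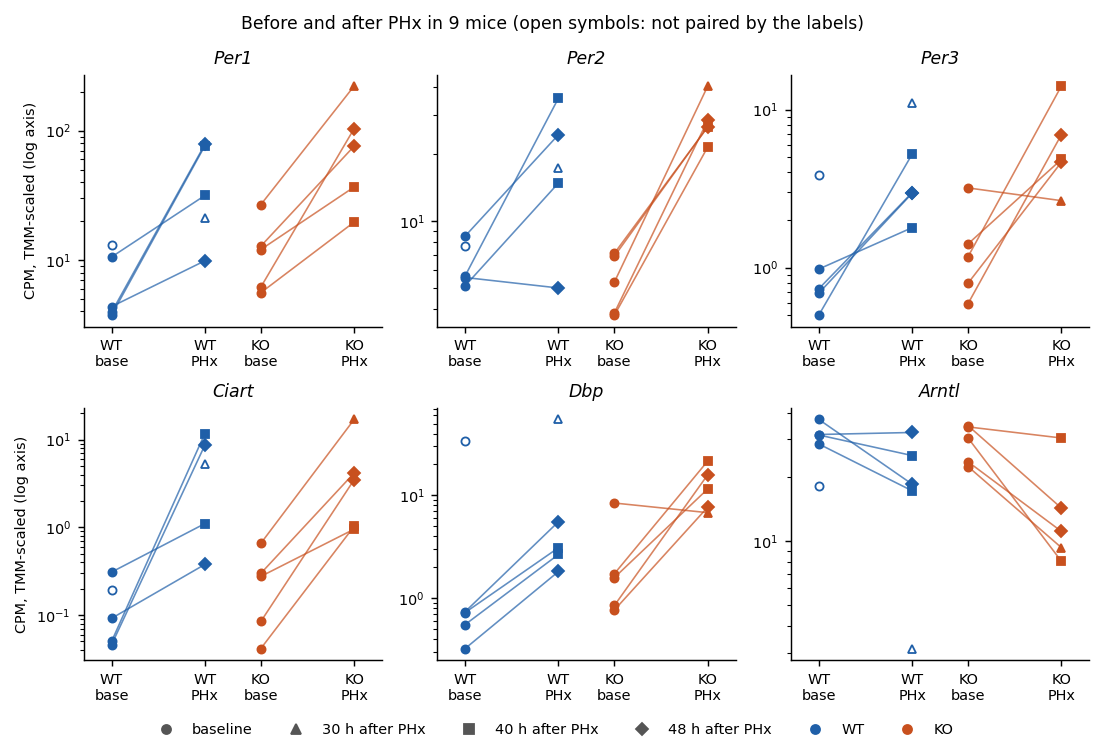
Levels (CPM, TMM-scaled, log axis) of 6 clock genes before and after PHx; lines join the livers of 1 mouse for the 9 mice the labels pair, and open symbols are livers numbered 1 in WT, which the labels do not pair. Per1 and Ciart were higher after PHx in 9 of 9 mice, Per2, Per3 and Dbp in 8 of 9, and Arntl in 1 of 9.

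Nr1d1 encodes REV-ERB alpha, the repressor of Arntl. Its WT baselines were 157, 40.6, 59.7, 81.3 and 91.7 CPM, and the WT livers after PHx had 66.2, 25, 2.70, 19.5 and 51.9 CPM. The KO baselines were 33.1, 24.9, 100.5, 50.0 and 133 CPM, followed by 31.4, 25.6, 6.98, 21 and 46.9 CPM. The lowest value in each genotype was a 40 h liver (WT 3 and KO 10), and 8 of 9 mice had less Nr1d1 after PHx. The log2 changes of -1.38 ± 0.63 in WT (adjusted p = 0.127, edgeR) and -1.37 ± 0.63 in KO (adjusted p = 0.101) did not pass. Averaged over genotypes, Nr1d1 fell at 40 h by 2.46 ± 0.61 on the log2 scale (adjusted p = 0.0082, edgeR). With the mouse block that value was -2.54 (adjusted p = 0.0675). Nr1d1 overlaps Thra on the other strand, and the strand setting of the counting is not given in the sources used here, so their shared reads cannot be told apart. Thra was 13.2 to 18.6 CPM at baseline and 3.33 to 9.96 CPM after PHx.

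Nr1d2, which encodes the related REV-ERB beta, spanned 19.8 to 104 CPM in WT at baseline (median 43.1) and 10.1 to 73.7 after PHx (median 53.0). In KO it spanned 23.3 to 36.1 CPM (median 32.8) and 27.9 to 103 CPM (median 63.7). The groups overlapped in both genotypes, with WT 1 the highest baseline and WT 3 at 40 h the lowest of all. The log2 change was -0.09 ± 0.45 in WT (adjusted p = 0.917, edgeR) and 1.04 ± 0.45 in KO (adjusted p = 0.088). Without KO 10 after PHx the KO value was called, at 1.21 (adjusted p = 0.0447, edgeR), and it was also called by library size alone. Against baseline, averaged over genotypes, Nr1d2 was at 0.77 ± 0.35 at 48 h (adjusted p = 0.0832, edgeR), called higher in 5 alternatives. At 40 h it was at -0.41 ± 0.37 (adjusted p = 0.455, edgeR), called lower only in a fit that left 1 WT liver at 40 h. Averaged over genotypes, the value at 48 h minus that at 40 h was 1.18 ± 0.44 for Nr1d2 (unadjusted p = 0.0164, adjusted p = 0.162, edgeR). Without WT 2 after PHx it was called, at 1.97 (adjusted p = 0.0226). Nr1d1 gave 1.20 ± 0.64 in the same comparison (adjusted p = 0.301).

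Dbp encodes a D-box activator and is among the clock outputs of largest daily swing in liver. At baseline WT mice 2 to 5 had 0.550, 0.720, 0.321 and 0.734 CPM, and WT 1 had 34 CPM. In WT after PHx mice 2 to 5 had 2.65, 3.08, 1.81 and 5.53 CPM, and WT 1 at 30 h had 54.9 CPM. The livers numbered 1 were the 2 highest of all 20, and the other 4 livers after PHx were above the other 4 baselines. The KO baselines had 0.763, 0.845, 1.72, 1.58 and 8.40 CPM, the last in KO 12. After PHx the KO livers had 7.67, 15.9, 21.6, 11.5 and 6.77 CPM, and KO 12 alone was not higher than its own baseline. The log2 change of Dbp was 0.91 ± 1.15 in WT (adjusted p = 0.621, edgeR) and 2.26 ± 1.20 in KO (adjusted p = 0.155).

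The WT value turned on the livers numbered 1. Without WT baseline 1 it was called, at 4.54 (adjusted p = 0.00926, edgeR), and without WT 1 at 30 h it turned to -1.14 (adjusted p = 0.498). In KO, leaving out baseline 12 raised the value to 3.36 without a call (adjusted p = 0.0756, edgeR), and a fit of the KO livers only, KO 12 included, called it at 2.27 (adjusted p = 0.0319). Without both WT 1 and KO 12 at baseline, an alternative chosen after seeing the data, Dbp was called higher after PHx at 4.54 in WT (adjusted p = 0.00572, edgeR) and 3.36 in KO (adjusted p = 0.0161). The WT value of 4.54 keeps the 30 h liver of WT 1. Within mice, by the block that leaves out both livers numbered 1, it was 2.44 in WT (adjusted p = 0.0268, edgeR) and 2.86 in KO (adjusted p = 0.00956). At 40 h Dbp was 2.65 and 3.08 CPM in WT and 21.6 and 11.5 CPM in KO, and at 48 h 1.81 and 5.53 against 7.67 and 15.9 CPM. All 4 KO livers of these times lay above all 4 WT livers, while at 30 h the order was the opposite, at 6.77 CPM in KO and 54.9 CPM in WT. The log2 differences, KO minus WT, were 2.53 ± 1.75 at 40 h (adjusted p = 0.342, edgeR) and 1.68 ± 1.69 at 48 h (adjusted p = 0.494). Without the baselines of WT 1 and KO 12 the differences were 2.52 and 1.67, and both were called (adjusted p = 0.0182 and 0.0479, edgeR). Those baselines are on neither side of this comparison, and that fit tested 14968 genes in place of 14661. Dbp overlaps Sphk2 on the other strand, so their shared reads cannot be told apart. Sphk2 was 74.0 CPM in WT baseline 1 and 52.4 CPM in KO baseline 12, and 21.8 to 34.8 CPM in the other 8 baselines.

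Tef, a relative of Dbp that binds the same D-box, spanned 17 to 30.1 CPM in WT baselines 2 to 5 and was 75.0 CPM in WT 1. After PHx the WT livers had 89.1, 104, 21.6, 75.7 and 44.2 CPM, of which 3 were above all baselines. In KO it was 12.2, 16.5, 23.6, 18 and 49.6 CPM at baseline and 55.6, 72.1, 89.2, 35.8 and 48.8 CPM after PHx. KO 12 again had the highest baseline. Tef rose in KO by a log2 of 1.33 ± 0.46 (adjusted p = 0.0346, edgeR), and the WT value of 0.97 ± 0.45 did not pass (adjusted p = 0.138). The WT change was called without WT baseline 1, at 1.47 (adjusted p = 0.0296). The KO call was lost without any one of KO baselines 7, 8, 10 or 11 or of KO 8 or KO 10 after PHx, with adjusted p from 0.0603 to 0.084 (edgeR).

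**Figure D3:**
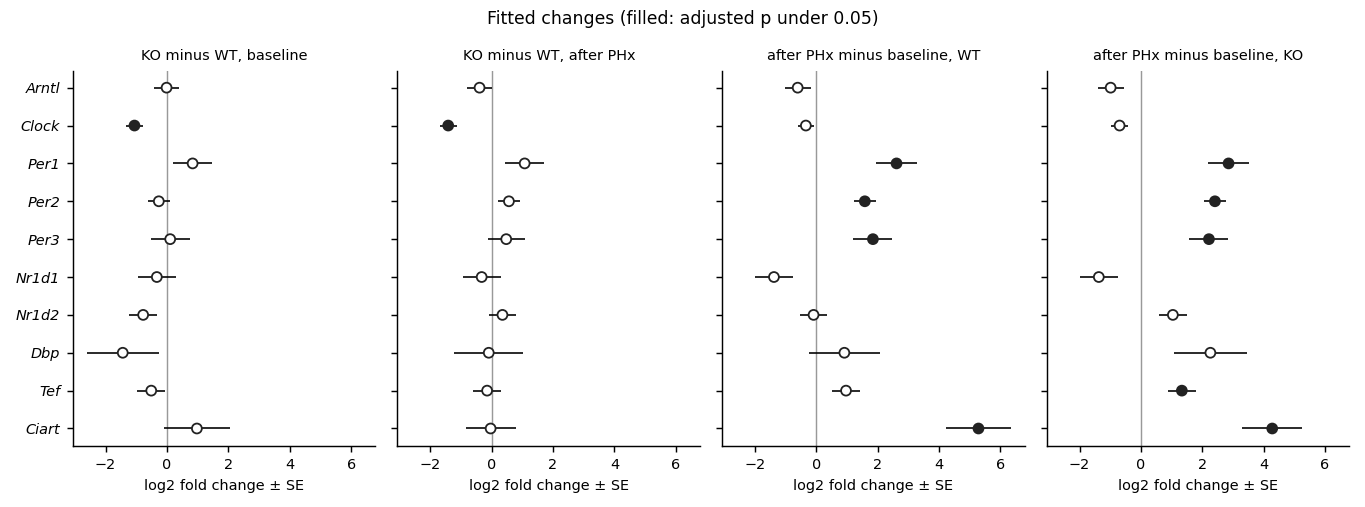
Fitted log2 fold changes (points) with their SE (bars) for the 10 clock genes in 4 comparisons of 5 against 5 livers, without pairing by mouse. Filled points have an adjusted p under 0.05 (edgeR). Clock is the filled point in both comparisons of genotypes, at -1.06 and -1.42, and Per1, Per2, Per3 and Ciart are filled in both responses.

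Markers of cell types moved with PHx beside these genes, and their part in the responses was not tested. In WT, 3 of 6 hepatocyte markers fell, 2 of 6 Kupffer cell and macrophage markers rose, Marco (log2 change 3.89) and Cd68 (1.34), and 1 of 6 endothelial and 1 of 4 lymphocyte markers fell. In KO, 2 of 6 hepatocyte, 2 of 6 stellate and 3 of 4 lymphocyte markers fell, and 3 of 5 cholangiocyte markers rose, Krt7 (2.98), Epcam (2.93) and Krt19 (2.59). Kupffer cell markers there gave 1 higher, Marco (2.42), and 2 lower, and endothelial markers 1 higher and 1 lower. The summed levels by group are those given above beside Clock.

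The response to PHx itself was compared between genotypes by the interaction term. None of the 10 members was called by edgeR or by DESeq2, and none had an unadjusted p under 0.05, where 0.164% of all genes were called higher and 0.225% lower. The members with the smallest unadjusted p were Nr1d2, at a difference of 1.13 ± 0.64 (KO response minus WT response, unadjusted p = 0.092), and Per2 (unadjusted p = 0.11). For Dbp the difference was 1.35 ± 1.63, an error that leaves several-fold differences in either direction undetected.

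Averaged over genotypes, 4 of 10 members were called higher and 1 lower at 40 h against baseline, where 13.5% and 11.1% of all genes were called. The higher ones were Per1 (log2 change 2.04), Per2 (2.06), Per3 (2.07) and Ciart (3.70), and the lower one was Nr1d1. With the mouse block 3 were called higher at 40 h and 0 lower, against 2.5% and 2.88% of all genes. They were Dbp (2.71, adjusted p = 0.00606, edgeR), Per2 and Per3. Under it Per1 was at 2.32 (adjusted p = 0.0607) and Ciart at 3.55 (adjusted p = 0.0885). At 48 h, 2 whole days after surgery, 5 were called higher and 0 lower, against 25.5% and 21.5% of all genes. They were Per1 (2.73, adjusted p = 0.000281, edgeR), Per2 (1.76, adjusted p = 0.000296), Per3 (1.59, adjusted p = 0.0158), Ciart (4.42, adjusted p = 0.000128) and Tef (1.11, adjusted p = 0.045). At that time Arntl was at -0.70 ± 0.29 (adjusted p = 0.0535) and Nr1d1 at -1.27 ± 0.56 (adjusted p = 0.0757). DESeq2 called both lower (adjusted p = 0.0349 and 0.0288), 7 members in all. So did the fits with no filter and with only the samples compared, each with 8 members, against 26.1% and 48.1% of all genes. At 40 h DESeq2 also called 7, adding Tef higher (1.16, adjusted p = 0.0344) and Clock lower (-0.71, adjusted p = 0.0378). Its shares of all genes were 50.2% at 48 h and 29.3% at 40 h. With the mouse block Dbp was called at 48 h too, at 3.24 (adjusted p = 0.00315, edgeR). Cell type markers moved in these comparisons as well, and their part was not tested. At 48 h 5 of 6 hepatocyte, 3 of 6 Kupffer cell, 4 of 6 endothelial, 3 of 6 stellate and 4 of 4 lymphocyte markers fell, and 4 of 5 cholangiocyte, 1 Kupffer cell and 1 endothelial marker rose. At 40 h 3 hepatocyte, 1 endothelial, 2 stellate and 3 lymphocyte markers fell, and 3 cholangiocyte, 2 Kupffer cell, 1 endothelial and 1 stellate marker rose. The 48 h call of Tef was lost without any one of 11 livers (adjusted p from 0.0635 to 0.189). Per3 lost its 40 h call without WT 2 (adjusted p = 0.0699) and its 48 h call without KO 8 (adjusted p = 0.06). Between 48 h and 40 h, edgeR and DESeq2 called none of the members and 1 had an unadjusted p under 0.05, where 0.075% of all genes were higher and 0.3% lower.

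The single 30 h livers had different clock profiles in the 2 genotypes, with no replicate to test it. In WT 1 at 30 h Dbp was 54.9, Per3 11, Tef 89.1 and Arntl 3.14 CPM, the lowest Arntl and the highest Dbp of all livers. In KO 12 at 30 h Per1 was 222, Per2 40.5 and Ciart 17 CPM, each the highest of all livers, with Dbp at 6.77 and Arntl at 9.33 CPM. Without both 30 h livers the counts of members called were 3 in WT, where Per3 was lost at 1.28 (adjusted p = 0.129, edgeR), and 5 in KO, with 22.8% and 26.6% of all genes called.

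**Figure D4:**
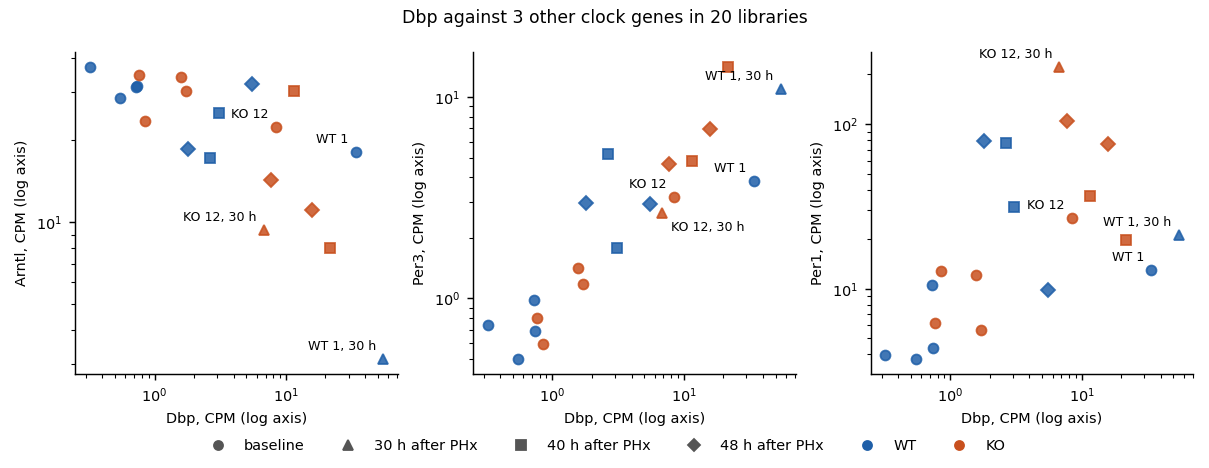
Dbp (horizontal, CPM, log axis) against Arntl, Per3 and Per1 (vertical, CPM, log axis) in the 20 livers; colours give genotype, symbols the time, and the livers numbered WT 1 and KO 12 are named. Per3 follows Dbp and Arntl runs opposite to it, and WT 1 at baseline, with Dbp at 34 CPM, lies far from the other baselines of WT.

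Across the 20 livers the log2 level of Dbp had a Pearson r of 0.88 with Per3, 0.74 with Tef and -0.76 with Arntl. With Per1 it was 0.44, with Ciart 0.35 and with Nr1d1 -0.01. These livers share group, mouse and library scaling, so the values are a description. Among 12506 genes of at least 1 CPM on average, those most like Dbp outside the members were Cdt1 (r = 0.795), Usp2 (0.756), 2310022A10Rik (0.742), Cdca7 (0.736) and Brca2 (0.735). Among the most like Arntl were Ypel2 (0.833), Npas2 (0.83), Pnrc1 (0.811) and Clpx (0.775). Npas2 encodes a paralog of CLOCK, and Usp2 a ubiquitin protease with a daily rhythm.

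Per kilobase of exon, where genes can be compared, Nr1d1 had the highest median in WT at baseline, at 26.4 CPM per kb (range 13.2 to 51.1). Below it came Nr1d2 (7.96), Clock (6.31), Arntl (4.18) and Tef (3.79), whose ranges overlapped from each to the next. Per2 (0.965), Per1 (0.774), Dbp (0.241), Per3 (0.0764) and Ciart (0.0406) followed, with overlapping neighbours below Per2, while the ranges of Tef and Per2 did not overlap. In KO after PHx Per1 was first, at a median of 13.5 CPM per kb (range 3.49 to 39.4), then Nr1d2 (11.8), Nr1d1 (8.34) and Tef (7.06). Clock there was at 1.87 CPM per kb, and Arntl at 1.48.

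Of 19 other clock genes, 18 were tested. In WT 1 rose after PHx, Timeless (log2 change 2.87), a replication fork gene named after a fly clock gene, and 0 fell, where 11.4% of all genes rose and 8.68% fell. Timeless was 0.917 to 2.61 CPM in WT at baseline and 37.5, 1.83, 2.66, 4.96 and 11.5 CPM after PHx, highest in WT 1 at 30 h. Without that liver it was at 1.72 and not called (adjusted p = 0.101, edgeR), nor was it called without WT baseline 3 or 5 or with the mouse block (1.61, adjusted p = 0.227). In KO 4 rose and 0 fell, Bhlhe41 (1.91), Arntl2 (1.82), Cry2 (1.52) and the casein kinase gene Csnk1e (1.13), where 17.5% of all genes rose and 12.1% fell, so the share that rose is near that of all genes. The calls of Bhlhe41 and Arntl2 were lost in 13 and 9 of 19 alternative fits, that of Csnk1e without KO 7 after PHx (adjusted p = 0.0574, edgeR), and that of Cry2 in 0 of 19. The list's median was 0.08 in WT and 0.38 in KO, beside 0.04 and 0.10 for all genes. Cry2, whose protein works with the PERs, was 6.04 to 22.7 CPM in KO at baseline and 14.3 to 58.8 after PHx. Its paralog Cry1 was at -0.42 in WT (adjusted p = 0.499, edgeR) and 0.27 in KO (adjusted p = 0.634). The difference of the Cry2 responses, KO minus WT, was 1.46 ± 0.55 and did not pass (adjusted p = 0.241, edgeR). At 48 h, averaged over genotypes, 5 rose and 2 fell, against 25.5% and 21.5% of all genes. With the mouse block 1 rose and 1 fell, against 7.97% and 10.6%. The 2 without the block were Npas2 at -2.51 (adjusted p = 0.00562) and the PAR-domain relative Hlf at -0.65 (adjusted p = 0.0389), whose call was lost in 9 of 23 alternative fits. Npas2 was lower after PHx in 9 of 9 mice, and its WT 1 livers, at 1.30 CPM at baseline and 0.174 at 30 h, were the lowest of their groups, as for Arntl. At 40 h 4 rose and 1 fell, against 13.5% and 11.1% of all genes, the latter Nfil3, a repressor that competes with DBP at D-boxes, at -1.24 (adjusted p = 0.0118), a call lost without WT 2 (adjusted p = 0.0653, edgeR). With the block 1 rose and 1 fell at 40 h, against 2.5% and 2.88%. Between genotypes Csnk1e was higher in KO at baseline (1.11) and after PHx (1.29), and Rora, an activator of Arntl, was lower after PHx (-0.80). The baseline call of Csnk1e was lost without any one of WT 2 to 5 or KO 7, and that of Rora without WT 4 or KO 7, by library size alone and with only the livers compared.

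Of 23 liver genes under clock control, 7 rose and 5 fell in WT after PHx, and 6 rose and 3 fell in KO. The shares of all genes were 11.4% and 8.68% in WT and 17.5% and 12.1% in KO, so the share that fell in KO is near that of all genes. With the mouse block 4 rose and 5 fell in WT, against 5.9% and 7.31%, and 4 rose and 4 fell in KO, against 10.8% and 11.7%. Wee1, a cell cycle kinase gene with E-boxes, rose by a log2 of 2.37 in WT and 1.71 in KO, calls lost with the mouse block and, in KO, without KO baseline 8 or 10. The largest other changes among called genes in WT were Elovl3 (-3.94), Cdkn1a (3.87), Upp2 (-3.45) and Leap2 (-2.93), and in KO Elovl3 (-6.30), Leap2 (-2.30), Cdkn1a (2.23) and Usp2 (2.11). Of these, the call of Upp2 was lost without WT baseline 1 or without WT 4 after PHx, and the others held in each alternative fit. Elovl3, a fatty acid elongase, was also lower in KO than in WT, at -4.02 at baseline and -6.38 after PHx. Between genotypes at baseline 3 of the 23 were higher in KO and 1 lower, against 11.1% and 4.89% of all genes, so both shares are near those of all genes. The cell cycle inhibitor gene Cdkn1a was higher at 2.46 (adjusted p = 0.0042, edgeR) and Noct, a rhythmic gene also called nocturnin, at 1.63 (adjusted p = 0.0051), and both held in 18 of 18 alternative fits. Usp2 was higher in KO at baseline, at 1.95 (adjusted p = 0.028, edgeR), and not without KO 12 (0.89) or any one of WT 2 to 5 (adjusted p up to 0.193). Its 10 baseline values were 0.450 to 3.12 CPM in WT, with WT 1 the highest, and 2.24 to 3.03 CPM in KO save KO 12 at 17.8.

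Genes of other daily signals were counted beside the clock, and their part in the clock genes' changes was not tested. The shares of all genes that rose and fell were 11.4% and 8.68% in WT and 17.5% and 12.1% in KO. Of 10 genes induced by glucocorticoids, 3 rose and 1 fell in WT and 4 rose and 1 fell in KO. Fkbp5, a chaperone gene of the glucocorticoid receptor, rose by 2.86 in WT and 2.82 in KO, the metallothioneins Mt1 (6.44 and 5.03) and Mt2 (7.23 and 5.53) rose too, and the phosphatase gene Dusp1 fell (-1.90 and -2.01). Of 8 temperature and heat shock genes, 1 rose and 2 fell in WT (4 fell without WT baseline 1), and 1 rose and 0 fell in KO. The cold-induced Rbm3 rose in both, by 3.02 and 2.67. Of 8 proliferation genes 8 rose in WT, with a median of 6.06, and edgeR with the mouse block called 0 of 8, with 2 at an unadjusted p under 0.05. In KO their median was 1.41, edgeR called 0 of 8 and DESeq2 1, and 2 had an unadjusted p under 0.05.

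Proliferation varied between livers after PHx along with several members, which was not tested. Mki67, a marker of dividing cells, was 82.3, 0.218, 14.2, 0.284 and 328 CPM in WT 1 to 5 after PHx. The 2 lowest, WT 2 and WT 4, had the 2 highest Per1, Per2 and Ciart of that group. In KO mice 7, 8, 10, 11 and 12 it was 3.42, 8.17, 118, 25.3 and 3.65 CPM, and mice 7, 8 and 12 had the 3 highest Per1, Per2 and Ciart values. Dbp ran the other way. WT 2 and WT 4, lowest in Mki67, had the 2 lowest Dbp values of their group (2.65 and 1.81 CPM), and WT 1 and WT 5 had the 2 highest of both. In KO mice 7 and 12 were the 2 lowest in both and KO 10 the highest in both.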

How the data were processed

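The data are poly(A) RNA-seq of 20 samples of mouse liver (4 groups of 5). Per the labels, TruSeq libraries were made from 1000 ng of total RNA (integrity above 8) and run on a NovaSeq 6000. Each deposited file gives 1 library's unnormalised read count for every Ensembl identifier. The series' design text names FastQC 0.11.5 and fastp 0.20.0 and counting of uniquely mapped reads on mm10, while the submitters' processing notes name Trimmomatic 0.36 for trimming. The aligner, counting program, strand setting and annotation release are not given in the sources used here. Of the 46603 identifiers, 46091 are in GENCODE M21, which gave symbols and exon lengths.

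edgeR 4.0.16 (R 4.3.3; TMM, filterByExpr on the 4 groups, two-sided quasi-likelihood test) was fitted to all 20 libraries with 4 group means, and with 8 means of genotype and time for single time points. Benjamini-Hochberg adjustment ran over the 14661 genes tested, and the SE is the absolute log2 change divided by the square root of F. The smallest share of a library's counts in tested genes was 99.8%. Alternatives were DESeq2 1.42.0, other scalings and filters, a fit of only the samples compared, each library left out, both 30 h libraries or WT baseline 1 with KO baseline 12 left out (chosen after seeing the data), a time term, and a block for the 9 mice that the labels number at both stages (18 libraries). Deviations of the livers of 1 mouse from their group means had correlations from -0.06 to 0.2. The fits were also run on simulated counts with known changes, and the outcome is not given here. The replicates are separate mice where the labels number them. A single library's value also carries differences between mice, lobes and library preparations, which 1 library cannot show beside its counting error. For counting error, 3 reads were taken as the limit that a count of 0 allows.

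All 10 members are named. Of the other lists, Cry1, Cry2, Npas2, Nfil3, Bhlhe41, Hlf and Wee1 may be named, with at most the 4 called genes of largest change per comparison, and the 5 genes most like Dbp and Arntl by Pearson r of log2 of CPM plus 1. Some genes that these rules would name are not reported here. The members and the lists were chosen with earlier results of these data known.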

Additional observations from a re-analysis of the deposited data

Results flagged for a closer look

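Dixon's criterion was applied to CPM in 72 groups of 5 libraries (the members and 8 further genes of the clock in 4 groups). It compares the highest or lowest library with the rest, and chance exceeds it in about 1 group in 20 for normally distributed values. CPM were not put on a log scale for it, so that rate need not hold here. In 11 of these groups the highest library stood apart. WT baseline 1 did so for Dbp (34 CPM, next 0.734), Per3 (3.84, next 0.978), Tef (75.0, next 30.1) and Wee1 (3.32, next 1.47). KO baseline 12 stood apart for Dbp (8.40 CPM, next 1.72) and Hlf (32.5, next 20.5). Among the 30 h livers, WT 1 stood apart for Dbp (54.9 CPM, next 5.53) and KO 12 for Ciart (17, next 4.17). KO 11 at 40 h stood apart for Arntl (30.4 CPM, next 14.3) and for Npas2 (11.9, next 1.83). WT 5 at 48 h stood apart for Clock (112 CPM, next 66.2).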

How the results depend on the processing

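The number of the 10 members called is given here, each with the share of all genes called in either direction in the same fit. With library size alone in place of TMM it was 0 between genotypes at baseline (24.8% of genes), 2 after PHx (28.6%), 0 at 40 h (21.2%) and 0 at 48 h (24.5%), where TMM gave 1 each (16%, 24.2%, 13.3% and 24.3%). With no filter 8 were called at 48 h against baseline (26.1%), and 5 with the filter (47%). With only the samples compared the counts were 0 between genotypes at 40 h (0.283%) and 0 at 48 h (0%), and 8 at 48 h against baseline (48.1%). Without baselines WT 1 and KO 12, an alternative chosen after seeing the data, they were 2 between genotypes at 40 h (10.7%), 2 at 48 h (21.5%), 8 at 40 h against baseline (20%) and 8 at 48 h against baseline (41.6%), where all livers gave 1, 1, 5 and 5. The replicate block gave 3 at 40 h against baseline (5.38%), 4 for the response in WT (13.2%), 7 in KO (22.6%), 0 for their difference (0.0467%), 6 at 48 h against baseline (18.6%) and 0 between 48 h and 40 h (0%). The block changed calls only for Arntl, Per1, Per3, Nr1d1, Dbp and Ciart, as given with each gene. The cause of these moves was not tested, save that a fit of only the samples compared has fewer samples.

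Leaving out 1 library gave 1 to 1 between genotypes at baseline (11% to 15% of genes) and 1 to 1 after PHx (18.8% to 34.3%), 0 to 0 at 40 h (1.47% to 17.3%) and 0 to 4 at 48 h (14.1% to 30.3%). It gave 3 to 6 for the response in WT (14.6% to 20.5%), 4 to 6 in KO (20.1% to 40.4%) and 0 to 0 for their difference (0.147% to 4.74%). Against baseline it gave 5 to 7 at 40 h (15% to 25.5%) and 3 to 8 at 48 h (33.4% to 47.5%), and between 48 h and 40 h 0 to 1 (0.0135% to 15%). The 1 at the end was Nr1d2 without WT 2 after PHx. In fits by time, leaving out a liver of 40 h or 48 h leaves 1 liver of that genotype and time, assumed to vary like the others. Of the 100 pairs of a member and a comparison, 45 were called in at least 1 fit. Their 875 refits kept their side of the threshold in 773 cases, passed it newly in 58 and no longer passed in 44. No change called in the main fit turned its sign, and none was called against the sign of the main fit. The change of Dbp in WT, called only in alternatives, had the opposite sign without WT 1 at 30 h, without a call. The 40 h and 48 h times hold 2 livers per genotype and 30 h holds 1, and Ciart has at most 14 reads in a baseline library, which limit precision.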
